A study of Mus musculus with 8 samples.

Results

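Interferon-stimulated genes were followed on each of 8 microarrays of sorted mouse lung macrophages. The set held 45 listed genes, and 42 of them were measured among 18782 genes. Each gene was taken from the probe set that carries its symbol alone in the platform annotation, and each had 1 such probe set. Ifi44 was not found under its own symbol, and Igtp and Ifi47 were found only on probe sets shared with a second symbol (Irgm2 and Olfr56), so these 3 are described apart.

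Interferons bind receptors that signal through JAK kinases to STAT transcription factors. Type I interferon acts mainly through the interferon-stimulated response element in the promoters of its target genes, whereas interferon-gamma acts mainly through gamma-activated sites. Macrophages respond to either with antiviral effectors, guanylate-binding proteins and chemokines, and the 2 responses overlap in the genes they induce.

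The knockout group at day 2 after birth (KO day 2) was pre-alveolar macrophages of CD11c-Cre/PPARg fl/fl mice, and its control (WT day 2) the same stage from PPARg fl/fl mice. The knockout group at day 11 (KO day 11) and its control (WT day 11) were mature alveolar macrophages of the same genotypes. All mice were C57BL/6 and all, controls included, carried the floxed PPARg alleles; the Cre is driven by the CD11c promoter, and its presence was not separated from the deletion by a Cre-only group. Each group had 2 arrays, and each array was a pool of cells from 2 mice. The sort gates differed: mature cells were taken as CD11b low from controls and CD11b high from knockouts, and at day 2 the labels give 2 Siglec-F and CD11b gates without saying which genotype each served, so gate and genotype cannot be told apart.

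Values are log2 signals normalised together by the submitters, and the median array signal was 5.35 on every array. Arrays of the same group correlated at 0.9942 to 0.9983 over genes, and arrays of different groups at 0.9675 to 0.9937. The Pparg probe set read 10.55 and 10.74 in KO day 2 pools, against 10.89 and 11.01 in WT day 2 pools, and 11.32 and 11.36 in KO day 11 pools, against 11.18 and 11.13 in WT day 11 pools. The labels do not give the deleted exons, so this probe set does not check the deletion. Fabp4, a lipid carrier known as a PPARg target, read 6.05 and 6.34 in KO day 2 pools, against 9.11 and 9.10 in WT day 2 pools. Itgax, which encodes CD11c, lay between 10.77 and 11.74 on all arrays. The pools also differed in sex: Y-linked Eif2s3y read 4.05 and 8.19 in replicates 1 and 2 of KO day 2 and 6.92 and 8.75 in replicates 1 and 2 of WT day 2, and Xist read 3.38 in WT day 2 replicate 2 and 3.46 in KO day 11 replicate 1 but at least 9.85 on the other arrays.

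The 200 bases before the gene start are printed for 6 genes. Among genes whose promoter holds the core of the interferon-stimulated response element, these had the largest difference between the KO day 2 pools. The core is spelled GAAA, any 2 bases, GAAA on either strand (TTTC, any 2 bases, TTTC in reverse). The sequences are RefSeq's for GRCm38.p6, read 5′ to 3′ along the gene, and capitals mark the matches. They lie at chr12:26456453-26456652 (- strand, Rsad2), chr19:34583329-34583528 (+ strand, Ifit3), chr19:34640689-34640888 (+ strand, Ifit1), chr11:82951902-82952101 (+ strand, Slfn5), chr5:120777660-120777859 (- strand, Oas3) and chr3:142620463-142620662 (+ strand, Gbp2).
Rsad2: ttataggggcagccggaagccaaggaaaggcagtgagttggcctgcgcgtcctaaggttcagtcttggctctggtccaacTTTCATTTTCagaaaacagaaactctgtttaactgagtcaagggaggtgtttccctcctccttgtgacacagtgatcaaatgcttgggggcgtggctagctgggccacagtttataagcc
Ifit3: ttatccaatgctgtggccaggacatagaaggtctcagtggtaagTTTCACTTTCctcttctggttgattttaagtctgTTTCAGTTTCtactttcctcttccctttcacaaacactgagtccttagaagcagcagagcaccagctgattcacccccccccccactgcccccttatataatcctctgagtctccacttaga
Ifit1: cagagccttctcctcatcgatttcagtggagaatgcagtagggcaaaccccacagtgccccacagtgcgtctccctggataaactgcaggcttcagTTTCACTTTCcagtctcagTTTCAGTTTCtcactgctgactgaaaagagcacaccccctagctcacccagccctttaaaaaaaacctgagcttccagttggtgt
Slfn5: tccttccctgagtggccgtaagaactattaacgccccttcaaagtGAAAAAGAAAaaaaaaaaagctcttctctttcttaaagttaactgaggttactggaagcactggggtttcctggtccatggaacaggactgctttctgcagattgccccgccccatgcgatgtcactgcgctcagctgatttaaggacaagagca
Oas3: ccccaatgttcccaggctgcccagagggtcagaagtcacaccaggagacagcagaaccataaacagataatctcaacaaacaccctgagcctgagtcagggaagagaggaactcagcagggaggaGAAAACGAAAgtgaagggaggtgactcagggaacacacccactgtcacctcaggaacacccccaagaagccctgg
Gbp2: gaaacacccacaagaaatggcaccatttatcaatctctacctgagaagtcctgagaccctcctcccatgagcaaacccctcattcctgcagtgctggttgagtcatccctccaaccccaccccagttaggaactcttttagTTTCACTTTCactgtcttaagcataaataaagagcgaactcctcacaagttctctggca
The match began 120 bases before the gene start in Rsad2, 155 in Slfn5, 75 in Oas3 and 59 in Gbp2, and there were 2 matches in Ifit3 (156 and 122 bases before) and in Ifit1 (104 and 85 bases before). Over the 300 bases from 250 before to 50 after each start, the core was present in 19 of 37 promoters of 31 of the genes (51.4%), and in 3.44% of all 32851 promoters. The gamma-activated site, TTCNNNGAA, which reads the same on both strands, was present in 6 of the 37 (16.2%) and in 8.3% of all promoters. The 18 genes with the core had a median difference of 1.85 (log2) between the KO day 2 pools and the 13 without it 2.68; the other 11 had no entry in the table. A match describes these letters in this window and is not evidence of binding.

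KO day 2 replicate 1 was the highest of the 8 arrays for all 42 genes, against 11.4% of all genes. It exceeded replicate 2 of the same group at least 2-fold in 34 of 42, where 0.719% of all genes did so (135 genes). Of the 135, 23 others were further interferon-stimulated genes or interferon-gamma, NLRC5 and CIITA targets, listed below, and 78 were in none of these lists. At least 4-fold it was higher in 21 of 42, where 0.234% of all genes were. Relative to the mean of the WT day 2 pools, the median of the 42 genes was 2.39 (log2) in KO day 2 replicate 1 and 0.39 in replicate 2, where all genes gave -0.033 and -0.022. Replicate 1 was at least 2-fold above the higher control in 37 of 42 genes (2.97% of all genes), and replicate 2 was above both controls in 31 of 42 (35.4%). The median of replicate 1 minus replicate 2 was 2.03 (log2) over the 42 genes and -0.015 over all genes, and it ranged from 0.18 for Ly6e to 5.22 for Rsad2. At least 2-fold higher in replicate 1 of the other groups were 5 of 42 in WT day 2 (0.0745% of all genes), 3 of 42 in KO day 11 (0.288%) and 0 of 42 in WT day 11 (0.0%). By any amount, replicate 1 was above replicate 2 in 42 of 42 genes in KO day 2 (45.0% of all genes), 33 of 42 in WT day 2 (48.8%), 35 of 42 in KO day 11 (46.9%) and 19 of 42 in WT day 11 (50.8%). A difference between 2 pools has no test here, and in these bulk pools fewer responding cells and less RNA per cell cannot be told apart. Sex moved with this difference, since KO day 2 replicate 1 lacked Y-linked signal, and its part was not tested.

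**Figure D1:**
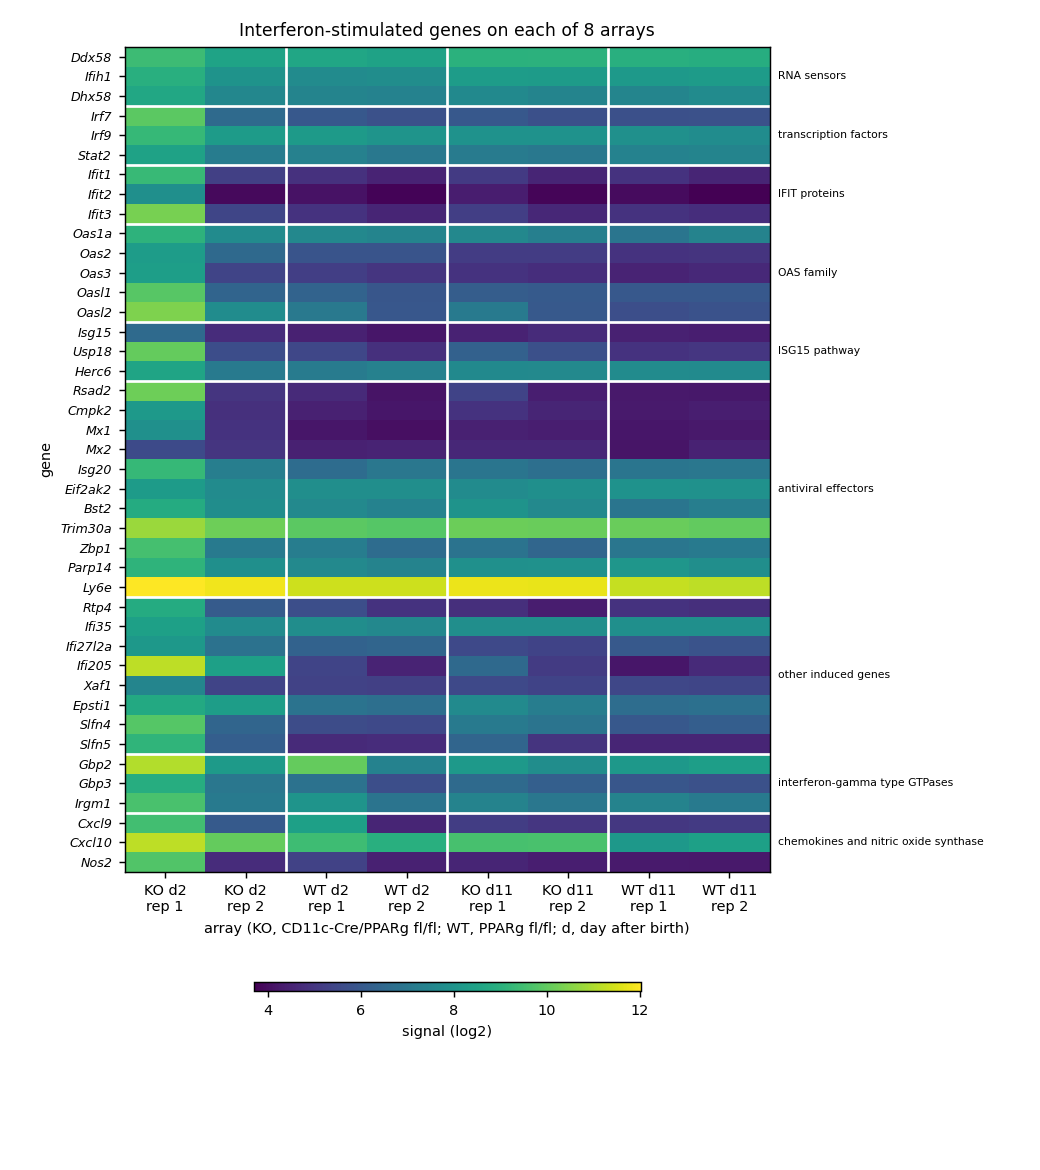
Log2 signal of the 42 genes (rows, grouped by role) on the 8 arrays (columns, KO left of WT within each age). The first column, KO day 2 replicate 1, is the highest in every row, and the WT day 2 replicate 1 column is also raised in the rows of Gbp2, Irgm1 and Cxcl9.

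**Figure D2:**
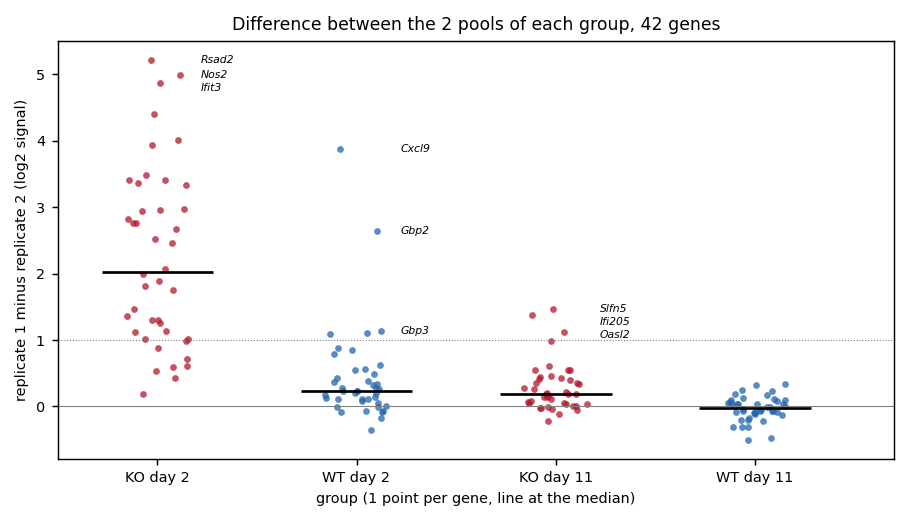
Replicate 1 minus replicate 2 (log2 signal) for each of the 42 genes in each group, with the median as a line and 2-fold as a dotted line. The KO day 2 median is 2.03, against 0.23 in WT day 2, 0.19 in KO day 11 and -0.026 in WT day 11.

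The cytosolic RNA sensors had the smallest median difference between the KO day 2 pools of the 9 roles, 0.98 (log2). Dhx58 (LGP2) read 8.67 and 7.55 in KO day 2 pools, against 7.45 and 7.40 in WT day 2 pools, and 7.65 and 7.46 in KO day 11 pools, against 7.50 and 7.71 in WT day 11 pools. Ddx58 (RIG-I) read 9.40 and 8.51 in KO day 2 pools, against 8.62 and 8.50 in WT day 2 pools. Replicate 1 of KO day 2 was the high array in both genes, replicate 2 lay close to the controls, and Ddx58 overlapped between the groups. Ifih1 (MDA5) read 8.96 and 7.98 in KO day 2 pools, against 7.71 and 7.79 in WT day 2 pools.

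Of the factors that carry the signal to the nucleus, Irf7, the amplifier of type I interferon transcription, read 9.91 and 6.58 in KO day 2 pools, against 5.99 and 5.76 in WT day 2 pools, and it lay between 5.72 and 6.00 on the day 11 arrays. Both KO day 2 pools of Irf7 were above both controls, replicate 1 by far the more. Irf9 read 9.28 and 8.27 in KO day 2 pools, against 8.24 and 8.01 in WT day 2 pools, so that replicate 2 was barely above the higher control. Stat2, their partner, overlapped, with 8.49 and 7.18 in KO day 2 pools, against 7.36 and 7.05 in WT day 2 pools.

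The IFIT proteins, which bind foreign RNA, were near the low end of the scale on 7 of the 8 arrays. Ifit3 read 10.32 and 5.44 in KO day 2 pools, against 4.93 and 4.55 in WT day 2 pools, and between 4.63 and 5.25 on the day 11 arrays. Ifit2 read 7.85 and 3.91 in KO day 2 pools, against 4.12 and 3.78 in WT day 2 pools. For Ifit3 the replicate 1 signal was 29.4-fold that of replicate 2. Ifit1 differed 16.1-fold and Ifit2 15.3-fold between the same pools, and the 3 genes are neighbours on chromosome 19.

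Among the oligoadenylate synthases, which activate RNase L, Oasl1, a family member without that activity, read 9.85 and 6.37 in KO day 2 pools, against 6.36 and 5.93 in WT day 2 pools. Oas1a read 9.09 and 7.73 in KO day 2 pools, against 7.58 and 7.44 in WT day 2 pools. Oas2 read 8.31 and 6.56 in KO day 2 pools, against 5.85 and 5.86 in WT day 2 pools, and 5.17 and 5.19 in KO day 11 pools, against 4.92 and 4.97 in WT day 11 pools. Oas2 was therefore above both controls in each KO pool at each age. Oas3 and Oasl2 had replicate 1 above replicate 2 in KO day 2 by 2.96 and 2.68 (log2).

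In the pathway of ISG15, a ubiquitin-like modifier, Usp18, the protease that removes ISG15 and restrains the receptor, read 10.07 and 5.66 in KO day 2 pools, against 5.48 and 4.85 in WT day 2 pools. It read 6.27 and 5.73 in KO day 11 pools, against 4.93 and 5.03 in WT day 11 pools. Usp18 did not overlap between genotypes at either age, yet its KO day 2 pools differed 21.2-fold. Herc6, the mouse ISG15 ligase, read 8.56 and 7.10 in KO day 2 pools, against 7.18 and 7.34 in WT day 2 pools, and overlapped. Isg15 itself read 6.59 and 4.77 in KO day 2 pools, against 4.45 and 4.20 in WT day 2 pools.

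The 11 antiviral effectors held both the widest and the narrowest differences. Rsad2 (viperin) read 10.20 and 4.98 in KO day 2 pools, against 4.71 and 4.15 in WT day 2 pools, and 5.38 and 4.39 in KO day 11 pools, against 4.27 and 4.24 in WT day 11 pools. Its KO day 2 pools differed 37.3-fold, and those of Cmpk2, its neighbour on chromosome 12 and a nucleotide kinase, 10.3-fold. Ly6e, a membrane-anchored protein of the Ly6 family, read 12.02 and 11.84 in KO day 2 pools, against 11.38 and 11.38 in WT day 2 pools, and 11.79 and 11.74 in KO day 11 pools, against 11.28 and 11.20 in WT day 11 pools. Both KO pools were above both controls at each age and close to each other.

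Mx2, a dynamin-like GTPase, read 5.56 and 4.97 in KO day 2 pools, against 4.47 and 4.53 in WT day 2 pools. Trim30a read 10.78 and 10.17 in KO day 2 pools, against 9.92 and 9.82 in WT day 2 pools. For both genes the KO day 2 pools lay above the controls without overlap. The remaining effectors (Mx1, Isg20, Eif2ak2, Bst2, Zbp1 and Parp14) had replicate 1 above replicate 2 in KO day 2 by 0.53 to 2.95 (log2).

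Among the other induced genes, Ifi205, a member of the AIM2-like receptor family, read 11.18 and 8.42 in KO day 2 pools, against 5.39 and 4.54 in WT day 2 pools, and 6.53 and 5.15 in KO day 11 pools, against 4.20 and 4.70 in WT day 11 pools. Epsti1 read 8.77 and 8.33 in KO day 2 pools, against 6.86 and 6.73 in WT day 2 pools, and 7.68 and 7.23 in KO day 11 pools, against 6.69 and 6.77 in WT day 11 pools. Slfn5, a Schlafen family member, read 9.15 and 6.18 in KO day 2 pools, against 4.69 and 4.76 in WT day 2 pools. These were the 3 genes, of 42, whose replicate 2 of KO day 2 was itself at least 2-fold above the higher control, by 3.03, 1.48 and 1.42 (log2), where 2.28% of all genes were.

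Slfn4, the neighbour of Slfn5 on chromosome 11, read 9.84 and 6.43 in KO day 2 pools, against 5.64 and 5.53 in WT day 2 pools. Rtp4 read 8.83 and 6.07 in KO day 2 pools, against 5.71 and 4.91 in WT day 2 pools, and 4.82 and 4.38 in KO day 11 pools, against 4.93 and 4.84 in WT day 11 pools. Ifi27l2a read 8.15 and 6.84 in KO day 2 pools, against 6.31 and 6.40 in WT day 2 pools, and 5.55 and 5.36 in KO day 11 pools, against 6.02 and 5.83 in WT day 11 pools. Rtp4 and Ifi27l2a were thus above both controls at day 2 and below both at day 11. Xaf1 and Ifi35 had replicate 1 above replicate 2 in KO day 2 by 2.06 and 0.71 (log2).

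In the interferon-gamma type genes, replicate 1 was the higher pool in both day 2 groups. Gbp2, a guanylate-binding protein, read 11.07 and 8.24 in KO day 2 pools, against 10.05 and 7.41 in WT day 2 pools. Gbp3 read 8.89 and 6.99 in KO day 2 pools, against 6.85 and 5.71 in WT day 2 pools. Replicate 1 was high in both groups, 7.10-fold above replicate 2 in KO and 6.25-fold in WT for Gbp2. Irgm1, an immunity-related GTPase, read 9.64 and 7.11 in KO day 2 pools, against 8.01 and 6.91 in WT day 2 pools, and so overlapped.

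Cxcl9, the T cell chemokine induced chiefly by interferon-gamma, was chosen here after its values were seen, and read 9.49 and 6.07 in KO day 2 pools, against 8.42 and 4.55 in WT day 2 pools. Its difference between pools was larger in WT (14.6-fold) than in KO (10.7-fold). Nos2, the inducible nitric oxide synthase, read 9.76 and 4.77 in KO day 2 pools, against 5.33 and 4.45 in WT day 2 pools, so that its high value was on 1 array. Cxcl10, which both interferon types induce, read 11.20 and 10.06 in KO day 2 pools, against 9.44 and 8.95 in WT day 2 pools, and 9.59 and 9.64 in KO day 11 pools, against 8.14 and 8.44 in WT day 11 pools. Cxcl10 was above both controls in every KO pool.

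Altogether 5 of the 42 genes (Cxcl9, Gbp2, Gbp3, Irgm1 and Oasl2) were at least 2-fold higher in replicate 1 of both day 2 groups, where 0.0639% of all genes were (12 genes). The other 7, chosen after their values were seen, were Acod1, Gbp5, Gm12250, Ly6i, Pla2g7, Slamf7 and Slamf8. Gbp5 read 7.63 and 4.53 in KO day 2 pools, against 6.00 and 4.12 in WT day 2 pools. KO day 2 replicate 2 stood furthest under the higher WT day 2 pool in Cxcl9 (-2.35, log2), Gbp2 (-1.81), Irgm1 (-0.90) and Nos2 (-0.56).

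**Figure D3:**
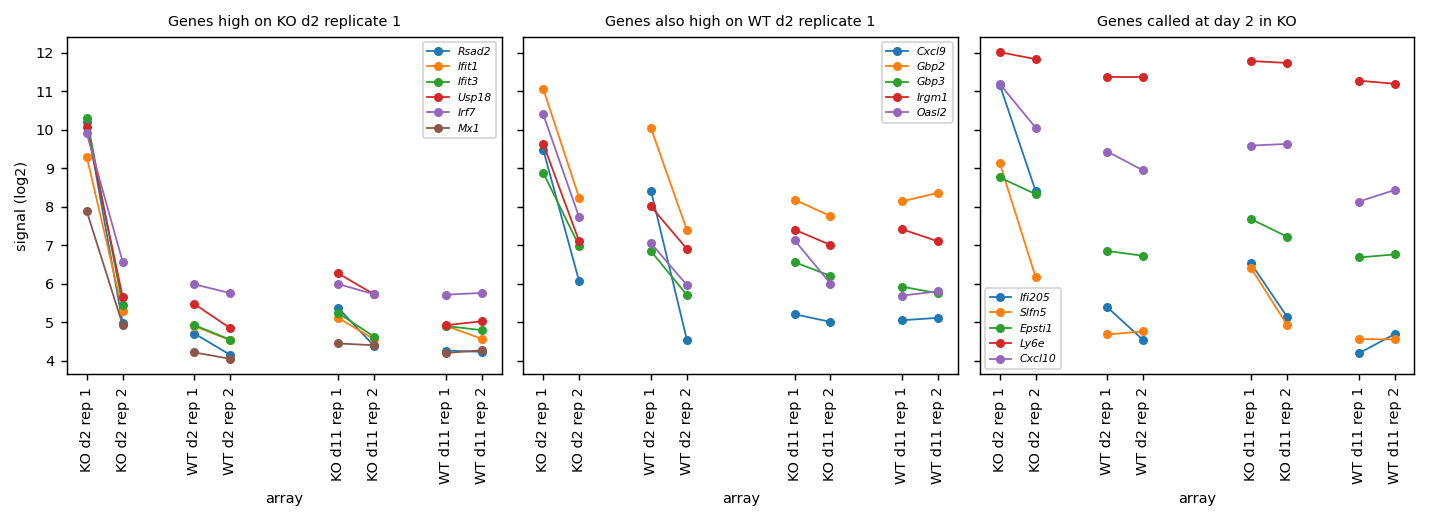
Log2 signal of selected genes on each array, with the 2 pools of a group joined by a line. The left panel has 1 high array (KO day 2 replicate 1). In the middle panel WT day 2 replicate 1 is also at least 2-fold above WT day 2 replicate 2. For Gbp3 and Oasl2 it lies below both KO day 2 pools. In the right panel both KO day 2 pools lie above both WT day 2 pools.

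At day 2, 8 of 42 genes were called higher in KO (8.86% of all genes were) and 0 lower (11.2%), at an adjusted p under 0.05 in limma. The called genes differed by 4.84 ± 0.82 for Ifi205 (log2 difference ± SE, adjusted p = 0.00461), 2.94 ± 0.84 for Slfn5 (0.0445), 1.76 ± 0.17 for Epsti1 (0.000322) and 1.58 ± 0.45 for Oas2 (0.0433). Cxcl10 differed by 1.44 ± 0.33 (adjusted p = 0.018), Mx2 by 0.77 ± 0.18 (0.0191), Trim30a by 0.61 ± 0.17 (0.0398) and Ly6e by 0.55 ± 0.076 (0.00168). The difference was at least 2-fold in 26 of 42 genes, where it was in 2.88% of all genes, and in 31 the KO pools were above the WT pools without overlap, where 24.0% were. An unadjusted p under 0.05 was found for 28 of the 42 genes and for 31.5% of all genes.

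Many of the larger differences were not called, and the standard error includes the difference between the KO day 2 pools. The median standard error was 0.55 over the 42 genes and 0.081 over all genes. Rsad2 differed by 3.16 ± 1.36 (adjusted p = 0.157) and Ifit3 by 3.14 ± 1.25 (0.129). Cxcl9 differed by 1.29 ± 1.31 (0.575). Without KO day 2 replicate 1, 10 of 42 genes were called, all higher, where 16.1% of all genes were called in either direction in the same fit (Irf7, Oas2, Mx1, Mx2, Ly6e, Ifi27l2a, Ifi205, Epsti1, Slfn4 and Cxcl10), 6 of the 8 among them, and the median difference was 0.39 in place of 1.42. Without KO day 2 replicate 2, 40 were called, all higher, where 17.4% of all genes were called, and the median was 2.39. In both cases the lone KO pool was assumed to vary as the other groups did. Without WT day 2 replicate 1, 4 were called higher (Ly6e, Ifi205, Epsti1 and Cxcl10), where 12.9% of all genes were called, and without WT day 2 replicate 2, 3 (Ly6e, Ifi205 and Epsti1), where 11.8% were. Without either WT day 11 array, which enters only the shared estimate of spread, 5 were called higher, where 18.1% of all genes were called. With Y-linked signal as a covariate, added after seeing the data, 11 were called higher (18.1% of all genes were called) and the median difference was 0.87. Kdm5d, Eif2s3y and Uty, which make up the covariate, were lowest on KO day 2 replicate 1. This fit therefore cannot tell sex from any other difference of that pool.

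At day 11, 3 of 42 genes were called higher in KO (9.34% of all genes were) and 0 lower (9.29%). Cxcl10 differed by 1.33 ± 0.33 (adjusted p = 0.0268), Epsti1 by 0.73 ± 0.17 (0.0222) and Ly6e by 0.53 ± 0.076 (0.00226). The median difference of the 42 genes was 0.12, against -0.002 for all genes, and 21 were higher without overlap (27.7% of all genes) and 8 lower (28.7%). An unadjusted p under 0.05 was found for 4 of the 42 (29.0%). Ifi205 and Slfn5, called at day 2, differed by 1.40 ± 0.82 (adjusted p = 0.329) and 1.11 ± 0.84 (0.463), with replicate 1 of KO day 11 above replicate 2 by 1.38 and 1.47 (log2). Ly6e was the 1 gene called without WT day 11 replicate 1, without WT day 11 replicate 2 and without KO day 11 replicate 1, and without KO day 11 replicate 2 there were 2 (Ly6e and Epsti1), where 11.0% to 13.9% of all genes were called. Without either KO day 2 array, 7 were called higher and 1 lower at day 11, where 20.0% of all genes were called.

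**Figure D4:**
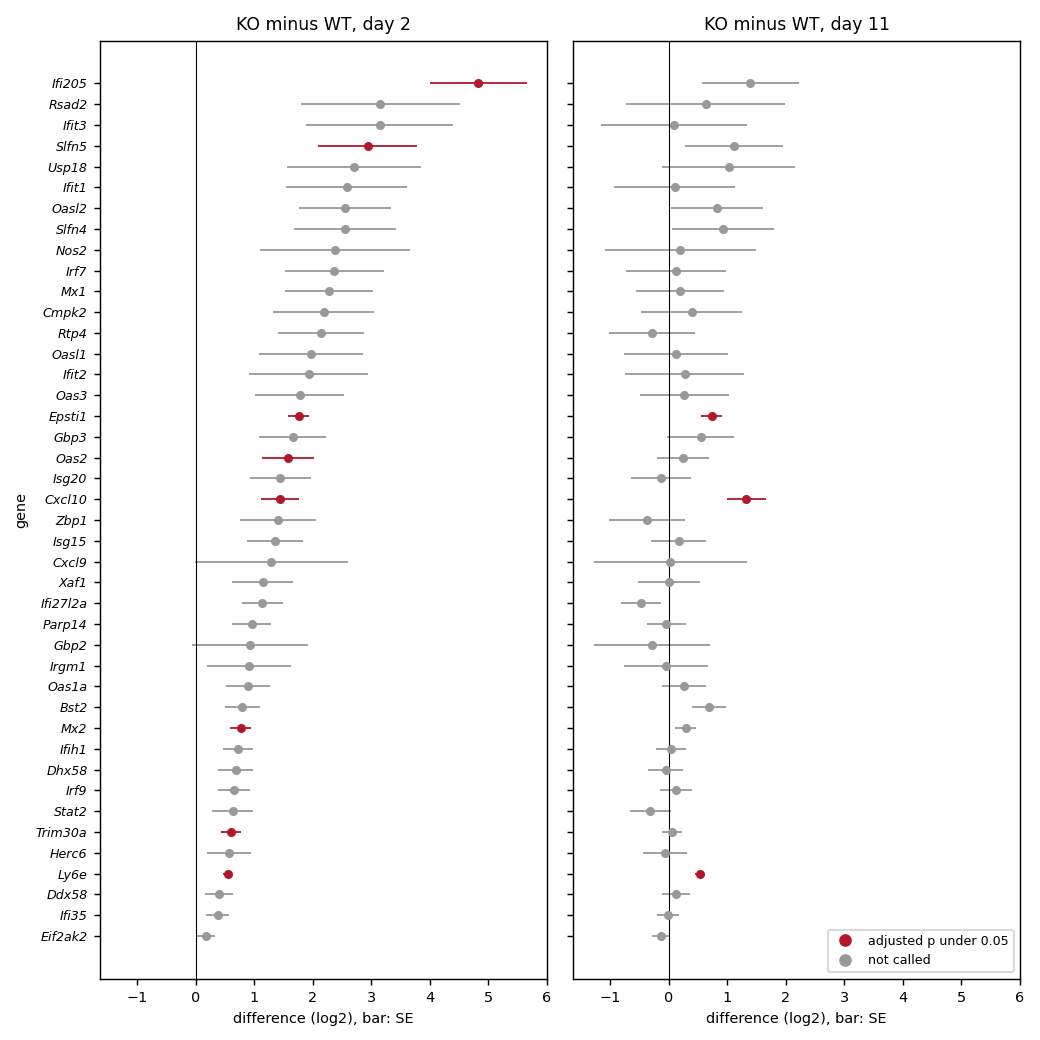
KO minus WT (log2 difference, bar: SE from limma over 8 arrays) for the 42 genes at day 2 and day 11, on the same scale; red marks an adjusted p under 0.05. Ly6e and Epsti1 have short bars at both ages, while Rsad2 and Ifit3 have long ones at day 2.

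With age, 6 of 42 genes were called lower at day 11 than at day 2 in KO (6.71% of all genes were) and 0 higher (8.81%), and 26 were lower without overlap (24.6%). They were Ifi205 (-3.96 ± 0.82, adjusted p = 0.0164), Rtp4 (-2.86 ± 0.74, 0.0377), Oas2 (-2.25 ± 0.45, 0.0139), Ifi27l2a (-2.04 ± 0.34, 0.00709), Epsti1 (-1.09 ± 0.17, 0.00562) and Mx2 (-0.65 ± 0.18, 0.0463). In the controls 0 of 42 were called by limma, where 5.3% of all genes were, and 1 had an unadjusted p under 0.05 (21.3%). Without KO day 2 replicate 1, 11 genes were called with age in KO (3 higher and 8 lower), where 8.69% of all genes were called, and 8 in WT (4 higher and 4 lower), where 6.88% were. Without KO day 2 replicate 2, 39 were called in KO, all lower, where 15.9% of all genes were called, and the same 8 in WT. Without KO day 11 replicate 1, 3 were called lower in KO, where 10.7% of all genes were called, and without KO day 11 replicate 2, 2, where 8.2% were. The median age difference was -1.49 in KO and -0.14 in WT. The difference of these differences was called for 0 of 42 genes by limma (3.27% of all genes), with 5 at an unadjusted p under 0.05 (17.0%) and a lowest adjusted p of 0.0751 for Epsti1. Without KO day 2 replicate 2, 35 were called, all lower, where 5.02% of all genes were called, and without KO day 2 replicate 1, 1 (Ifi27l2a), where 2.34% were.

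The 42 genes include sensors and regulators such as Dhx58 and Usp18, described above. Further lists of ligands, receptors, sensors and negative regulators leave these 42 out. In them, 0 genes were 2-fold higher in KO day 2 replicate 1 than in replicate 2, where 0.719% of all genes were. Beside so small a share, this count does not set the lists apart from all genes. The largest differences were 0.92 (log2) among receptors and JAK-STAT genes, 0.88 among negative regulators, 0.60 among sensors and adaptors and 0.41 among ligands. Interferon ligands lay between 3.33 and 7.48 over all arrays, with list medians of 4.05 to 4.26 on the single arrays. The median array signal was 5.35. Ifnb1 was low, at 3.62 and 3.50 in KO day 2 pools, against 3.46 and 3.53 in WT day 2 pools. Ifng read 4.38 and 4.37 in KO day 2 pools, against 4.17 and 4.25 in WT day 2 pools. Of 14 ligands measured, 0 were called higher in KO at day 2 (8.86% of all genes were) and 1 lower (11.2%). The 1 was Ifnab (-0.25 ± 0.066, adjusted p = 0.0358 in limma). Ligand RNA in the sorted cells does not measure interferon made elsewhere.

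Of 15 receptor and JAK-STAT genes, 7 were called higher in KO at day 2 (8.86% of all genes were) and 6 at day 11 (9.34%), and 0 lower at either age (11.2% and 9.29% of all genes). Irf5, a macrophage transcription factor downstream of Toll-like receptors, read 10.04 and 10.05 in KO day 2 pools, against 8.98 and 8.94 in WT day 2 pools, a difference of 1.08 ± 0.077 (adjusted p = 6.7e-05). Ifnar1, a type I receptor chain, differed by 1.05 ± 0.11 (0.000359). The median difference of the 15 between the KO day 2 pools was 0.11 (log2).

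Of 18 nucleic acid sensors and adaptors, 4 were called higher and 5 lower at day 2, where 8.86% and 11.2% of all genes were, and 4 and 6 at day 11, where 9.34% and 9.29% were. Tlr9, the endosomal DNA sensor, differed by 2.65 ± 0.16 at day 2 and 1.72 ± 0.16 at day 11, and Mavs, the adaptor of the RNA sensors, by -0.87 ± 0.087 and -0.83 ± 0.087. Of 13 negative regulators, 3 were called higher and 2 lower at day 2, and 2 and 3 at day 11, against the same shares of all genes. Socs3, an inhibitor of cytokine receptor signalling, differed by 1.91 ± 0.20 at day 2 and 2.73 ± 0.20 at day 11.

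Among further interferon-stimulated genes, KO day 2 replicate 1 was above replicate 2 in 61 of 63 and at least 2-fold in 16, where 45.0% and 0.719% of all genes were. Ms4a4c read 9.64 and 6.27 in KO day 2 pools, against 3.69 and 3.72 in WT day 2 pools, a difference of 4.25 ± 0.87 (adjusted p = 0.011). Of 63, 15 were called higher and 2 lower at day 2 (8.86% and 11.2% of all genes), and 6 higher and 5 lower at day 11 (9.34% and 9.29%). Of 25 interferon-gamma, NLRC5 and CIITA targets, 9 were called higher and 0 lower at day 2 (8.86% and 11.2% of all genes). At day 11, 0 were called in either direction (9.34% of all genes higher and 9.29% lower). KO day 2 replicate 1 was above replicate 2 in 21 of the 25 (45.0% of all genes) and at least 2-fold in 7 (0.719%). The median difference was 0.68 (log2). Not all shared it: H2-Ab1, an MHC class II chain, read 11.57 and 11.60 in KO day 2 pools, against 7.65 and 7.51 in WT day 2 pools, so that the KO pools were alike. Of 23 inflammatory genes driven by NF-kB, 18 were called higher at day 2 (8.86% of all genes) and 10 at day 11 (9.34%). Their median difference between the KO day 2 pools was 0.01 (log2), and 2 were at least 2-fold higher in replicate 1 (0.719%).

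Markers of other cells were set beside these values. The median difference between the KO day 2 pools was 0.04 (log2) for 13 plasmacytoid dendritic cell markers, -0.08 for 15 T and NK cell markers, -0.11 for 13 dendritic cell markers, 0.08 for 10 monocyte markers, -0.15 for 17 alveolar macrophage genes and -0.33 for 11 alveolar epithelium markers. Replicate 1 was above replicate 2 in 1 of the 17 alveolar macrophage genes and 1 of the 11 epithelium markers, where 45.0% of all genes were. It was above in 7 of the 10 monocyte markers. Krt19 (-1.21, log2) and Chil3 (-1.30), both alveolar macrophage genes, were at least 2-fold lower in replicate 1. Siglech, which defines plasmacytoid dendritic cells, lay between 4.85 and 5.10 on all arrays, and Cd3d between 4.04 and 4.33. Not all members of these 2 lists were flat, and Blnk of the plasmacytoid list differed by 1.0 (log2) between the KO day 2 pools. In KO at day 2, 3 of 13 plasmacytoid dendritic cell markers and 3 of 15 T and NK cell markers were called higher, and 0 lower. At day 11, 3 and 2 were called higher, and 1 and 0 lower. Over all genes, 8.86% were called higher and 11.2% lower in KO at day 2, and 9.34% and 9.29% at day 11. Between genotypes, 9 of 10 monocyte markers were called higher in KO at day 2 and 6 at day 11. Their mean level was 10.11 and 9.78 in KO day 2 pools, against 7.87 and 7.80 in WT day 2 pools. The list holds Ifitm3, itself interferon-induced. Ccr2 read 10.78 and 10.79 in KO day 2 pools, against 8.11 and 8.04 in WT day 2 pools. At day 2, 9 of 13 dendritic cell markers and 9 of 14 neutrophil markers were also called higher in KO (8.86% of all genes). Of 17 alveolar macrophage genes, 12 were called lower (11.2% of all genes). The part of these markers in the differences between pools and between genotypes was not tested.

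**Figure D5:**
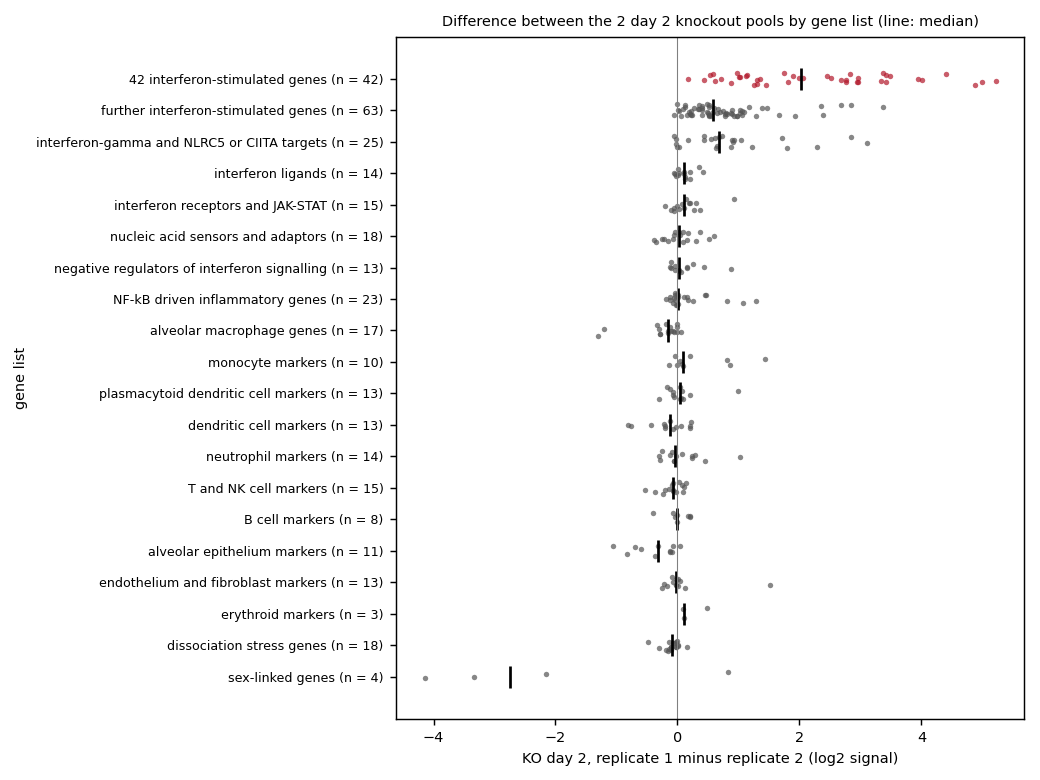
Replicate 1 minus replicate 2 of KO day 2 (log2 signal) for each gene of the 42 (red) and of the other lists (grey), with each list's median as a line. The median is 2.03 for the 42 genes, and from -0.33 to 0.68 for the other lists apart from the 4 sex-linked genes, where it is -2.74.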

How the data were processed

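RNA of sorted macrophages was hybridised to Affymetrix whole-transcript arrays. Per the submitters' processing notes, which name RMA and R 2.15.2, the deposited values are log2 signals. Of 28874 probe sets, 21159 had 1 gene symbol, 1881 several and 5834 none. Symbols were checked through Entrez identifiers (21129 matched), and 18782 genes remained, with the probe set of highest average signal for the 1368 that had several. Groups came from the sample titles.

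All 8 arrays were fitted with 4 group means in limma 3.58.1 (R 4.3.3), with Benjamini-Hochberg adjustment over 18782 genes and calls at an adjusted p under 0.05. The number of arrays limits the precision. Replicates are pools of separate mice. Replicate differences of at least 2-fold are descriptions. The scripts were tested on simulated data. The genes and lists were chosen with earlier results of these data known. In each role, genes called in any comparison and those with the largest and smallest difference between the KO day 2 pools were given in full; others are given by range or in brief. In other lists, called genes with the largest differences were named, at most 4 a list.

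Alternatives were the prior, array weights, centring, a filter on low values, probe set rules, fits of the compared groups alone, a replicate block and leaving out each array. A covariate of Y-linked signal was added after seeing the data.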

Additional observations from a re-analysis of the deposited data

Results flagged for a closer look

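In 3 genes both knockout pools lay above both controls at day 2 and below both at day 11. The knockout difference at day 11 minus that at day 2 was -2.43 for Rtp4, -1.61 for Ifi27l2a and -1.58 for Isg20 (log2). In limma the adjusted p of this difference was 0.294, 0.145 and 0.33, so none passed the threshold. Isg20 read 9.26 and 7.27 in KO day 2 pools, against 6.65 and 6.99 in WT day 2 pools. It read 6.932 and 6.74 in KO day 11 pools, against 6.936 and 7.002 in WT day 11 pools, so that the groups almost touched at day 11.

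Of 4 probe sets that list one of the genes with a second symbol, used only in an alternative, 3 had a KO day 2 mean above both day 2 controls. The set of Oas1a and Oas1g averaged 8.53 in KO day 2, with 9.20 and 7.86 in its pools, against 7.48 and 6.99 in WT day 2 pools. The set of Irgm2 and Igtp averaged 7.62 in KO day 2, with 8.60 and 6.64 in its pools, against 7.16 and 6.33 in WT day 2 pools. The set of Olfr56 and Ifi47 averaged 6.03 in KO day 2, with 7.38 and 4.67 in its pools, against 5.45 and 4.36 in WT day 2 pools. In the sets of Irgm2 and Igtp and of Olfr56 and Ifi47, KO day 2 replicate 2 lay between the 2 controls. The fourth, of Slfn5 and Unc45b, read 4.49 and 4.32 in KO day 2 pools, against 4.40 and 4.12 in WT day 2 pools, and its mean did not exceed the higher control.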

How the results depend on the processing

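Without 1 array at a time, the called genes of the 42 ranged from 3 to 40 for KO against WT at day 2, 1 to 8 at day 11, 0 to 8 for age in controls, 2 to 39 for age in knockouts and 0 to 35 for the interaction. The median differences ranged from 0.39 to 2.39, 0.10 to 0.22, -0.17 to 0.12, -2.60 to -0.28 and -2.25 to -0.14 in the same comparisons. With a trended, robust prior 3 were called at day 2 (20.2% of all genes in the same fit) and 3 for age in knockouts (15.9%). Fits of the compared groups alone called 3 at day 2, where 16% of all genes were called. They called 9 at day 11 (7 higher and 2 lower), where 17.8% were. For age they called 8 in controls (8.42% of all genes) and 1 in knockouts (7.81%). With a replicate block 13 were called at day 2 (19.7% of all genes) and 1 for the interaction (2.97%). No other count moved by over 1.5 times. The labels give same-numbered samples no link beyond the number. Over the 6 pairs of groups, their deviations from the group means correlated at -0.075 to 0.25. The highest were 0.25 for WT day 2 with KO day 2 and 0.238 for KO day 2 with KO day 11. Whether these samples share more than the number was not tested. With Y-linked signal as a covariate, chosen after seeing the data, 5 were called at day 11 (18.9% of all genes). For age, the same fit called 1 in controls (5.43% of all genes) and 3 in knockouts (7.79%). Its medians were 0.87 at day 2 (1.42 without the covariate), 0.42 at day 11 (0.12) and 0.18 for age in controls (-0.14, so that the sign turned). They were -0.34 for age in knockouts (-1.49) and -0.42 for the interaction (-1.24). As the covariate was lowest on KO day 2 replicate 1, these medians do not separate sex from other differences of that pool. The count of genes with replicate 1 above replicate 2 was 21 at 4-fold in KO day 2, 9 at 1.5-fold and 2 at 4-fold in WT day 2, and 5 at 1.5-fold and 0 at 4-fold in KO day 11. The interaction could not be fitted from the compared groups alone. Ly6e at both ages, and Epsti1 at day 2 and with age in knockouts, kept their calls in all 17 alternatives, and Ifi205 at day 2 lost its call with the trended, robust prior (adjusted p = 0.0545, range 0.000312 to 0.0545). At day 2, Oas2 and Slfn5 each lost the call in 8 of 17 alternatives, Trim30a in 9 of 17, Cxcl10 in 3 of 17 and Mx2 in 3 of 16. At day 11, Epsti1 lost it in 3 of 17 and Cxcl10 in 5 of 17. With age in knockouts, Mx2 lost it in 11 of 16, Rtp4 in 9 of 17, Oas2 and Ifi205 in 4 of 17 each and Ifi27l2a in 1 of 17. None of these changed sign. The causes of these changes were not tested beyond the arrays left out.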
